A study of Mus musculus with 4 samples.

Results

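Checkpoint ligands are surface or secreted proteins that turn T cells or natural killer cells down, and do-not-eat-me signals are surface proteins that hold macrophages back from engulfing a cell. A list of 10 such genes was followed in Lewis lung carcinoma (LLC) tumors: Cd274, Pdcd1lg2, Cd80, Cd86, Lgals9, Vsir, Pvr, Nectin2, Cd47 and Sirpa. The genes were matched by symbol, and all 10 were found among the 18605 genes listed in every library. LLC is a mouse lung carcinoma line, grown here under the skin of C57/BL6N mice that were 6 to 8 weeks old at the start. The control group (NT, labelled Mock) received no radiation and was 1 library made from 3 pooled tumors. Irradiated mice gave 3 libraries, RT1 to RT3, each from 1 tumor, taken 72 h after a total of 24 Gy given as 3 fractions of 8 Gy. All groups carried the same tumor line in hosts with an intact immune system, and no drug or gene deletion was part of the libraries. Because NT was 1 library, its values have no replicate error, the pool hides the spread between its tumors, and no test of NT against RT was run.

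PD-L1 (Cd274) and PD-L2 (Pdcd1lg2) bind PD-1 on T cells, while CD80 and CD86 bind both CD28, which activates T cells, and CTLA-4, which restrains them. Galectin-9 (Lgals9) is a sugar-binding lectin that binds TIM-3, and VISTA (Vsir) is an inhibitory relative of the B7 family. Pvr (CD155) and Nectin2 (CD112) bind the inhibitory receptor TIGIT and the activating receptor DNAM-1 (Cd226), and Nectin2 also binds the inhibitory receptor PVRIG. CD47 is found on most cells and binds SIRPα (Sirpa) on macrophages, which then signals against engulfment. SIRPα is therefore the receptor of this pair and is in the list beside its ligand.

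The libraries held 10141 barcodes in NT, 15346 in RT1, 14994 in RT2 and 15324 in RT3, of which 9976, 15029, 14993 and 15060 passed the filters. They held 69265692 unique molecular identifiers (UMIs, each standing for 1 captured RNA molecule) in NT, 77699472 in RT1, 108699270 in RT2 and 85050204 in RT3. RT2 stood apart in how its table was made, since it listed 18605 genes against 32285 in the others and held no barcode above 11.95% mitochondrial UMIs. Between 175 and 274 barcodes were shared by each pair of libraries, at most 1.83% of a library, and none of the shared barcodes had equal counts. Cells were clustered without the 10 genes and named by markers, so that "tumor" or "macrophage" below stands for tumor-like or macrophage-like clusters. Of the 8431 macrophages, a shallow cluster of 2616 cells had only 3 of 10 macrophage markers within 4-fold of their highest cluster. By mean log2 distance to that highest cluster it lay nearer to tumor markers (-1.53) than to macrophage markers (-2.25). It was named for 3 macrophage markers among its 10 leading genes. Conventional dendritic clusters of 142 and 136 cells had 4 of 9 markers within 4-fold. Tumor cells numbered 6783, 6934, 6320 and 8286 in NT, RT1, RT2 and RT3, and macrophages 776, 2983, 2923 and 1749. Monocytes numbered 571, 1983, 2148 and 1964, and lymphocytes 392, 365, 610 and 352. Neutrophils (23 cells in NT), fibroblasts (18 in NT), endothelial cells (34 in NT), conventional dendritic cells (59 in NT) and Ccr7-bearing mature dendritic cells (17 in NT) were few. A further group of 3448 cells led by Lum, Il1rl1 and Enpp2 held as much of the LLC marker Rhox5 as the tumor cells but also led with fibroblast genes. It was kept apart as Lum-led cells. Another 4675 cells stayed unnamed and are left out of the comparisons of cell types below.

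The labelled tumor line was checked against its markers. Rhox5 lay at 1064, 1304, 1203 and 1184 CPM (a gene's UMIs scaled to a total of 1000000 UMIs) in tumor cells of NT, RT1, RT2 and RT3, while of the 10 tumor markers Cdkn2a had 0 UMIs in tumor cells of every library, which allows at most 0.0591 CPM. Markers also appeared outside their own cell type. The 10 macrophage markers summed to 8.83 CPM in tumor cells of NT and to 39.9, 50.5 and 24.5 CPM in those of RT1 to RT3, none of the 10 was at 0, and in macrophages themselves they summed to between 8679 and 14853 CPM. Conversely Rhox5 lay at 193, 333, 270 and 390 CPM in macrophages and at 945, 696, 565 and 721 CPM in neutrophils.

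The proximal promoters of Lgals9 and Cd274 are shown for the following reason. Of the members with enough UMIs to be tested, these rose the most in tumor cells rich in interferon-induced transcripts, as described further on. They are RefSeq sequences of build GRCm38.p6, 250 bases before the annotated start and 30 after it, written 5′ to 3′ on the gene's strand. Capitals mark matches to TTTC, any 2 bases and TTTC again, a letter pattern shared with interferon-stimulated response elements.
Lgals9, chr11:78984895-78985174, minus strand: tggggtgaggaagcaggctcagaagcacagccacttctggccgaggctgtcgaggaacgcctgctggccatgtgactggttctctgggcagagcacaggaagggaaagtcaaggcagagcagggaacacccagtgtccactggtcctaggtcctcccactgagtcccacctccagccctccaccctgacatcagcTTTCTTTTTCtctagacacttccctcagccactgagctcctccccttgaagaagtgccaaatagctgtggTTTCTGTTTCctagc
Cd274, chr19:29367188-29367467, plus strand: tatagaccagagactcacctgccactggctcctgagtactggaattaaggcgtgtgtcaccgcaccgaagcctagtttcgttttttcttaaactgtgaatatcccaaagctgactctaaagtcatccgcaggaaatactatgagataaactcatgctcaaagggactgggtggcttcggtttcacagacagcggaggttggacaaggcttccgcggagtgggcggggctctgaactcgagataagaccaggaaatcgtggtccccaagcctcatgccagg
The Lgals9 window held 2 matches, beginning at -55 and at 16 from the start, on the strand shown. The pattern, on either strand, occurred in 3.28% of 32851 promoters cut to the same window. The Cd274 window held none, and neither did the windows of Pdcd1lg2, Cd80, Vsir, Nectin2 and Cd47. Another pattern looked for, TTCNNNGAA with N any base, occurred in 7.83% of the promoters. It was in none of the members' windows, that of Lgals9 included.

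The first comparison asked which cells of the tumor held the transcripts of each ligand. Pdcd1lg2, Cd80, Cd86 and Sirpa were host genes here, with over 90% of their UMIs in host cells in every library. Host cells held 98.6%, 97.9%, 98.1% and 99.6% of Pdcd1lg2 UMIs in NT, RT1, RT2 and RT3, and 98.6%, 98.6%, 98.4% and 98.5% of those of Sirpa. Pvr, Nectin2 and Cd47 came mostly from tumor and Lum-led cells, which held over 50% of their UMIs in every library, but also 89.6%, 75.4%, 72.8% and 83.5% of the UMIs of all genes in NT, RT1, RT2 and RT3. For Cd47 that share was 86.0% in NT, 62.7% in RT1, 61.2% in RT2 and 74.6% in RT3, below the share over all genes in every library. For Pvr it was 88.9%, 76.5%, 73.1% and 80.6%, on both sides of that share. The RT shares of both lay below NT.

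Cd274, Lgals9 and Vsir belonged to neither group. Host cells held 50.7% of Cd274 UMIs in NT, 74.2% in RT1, 73.1% in RT2 and 67.1% in RT3. For Lgals9 the tumor and Lum-led share was 77.2% in NT and 46.2%, 49.6% and 65.6% in RT1 to RT3. For Vsir it was 52.0% in NT and 23.8%, 29.3% and 45.3% in RT1 to RT3. Over all genes, host cells held 8.29% of the UMIs of NT, 22.6% of RT1, 25.8% of RT2 and 14.1% of RT3, so the source of the mixed genes moved together with the makeup of the library.

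**Figure D1:**
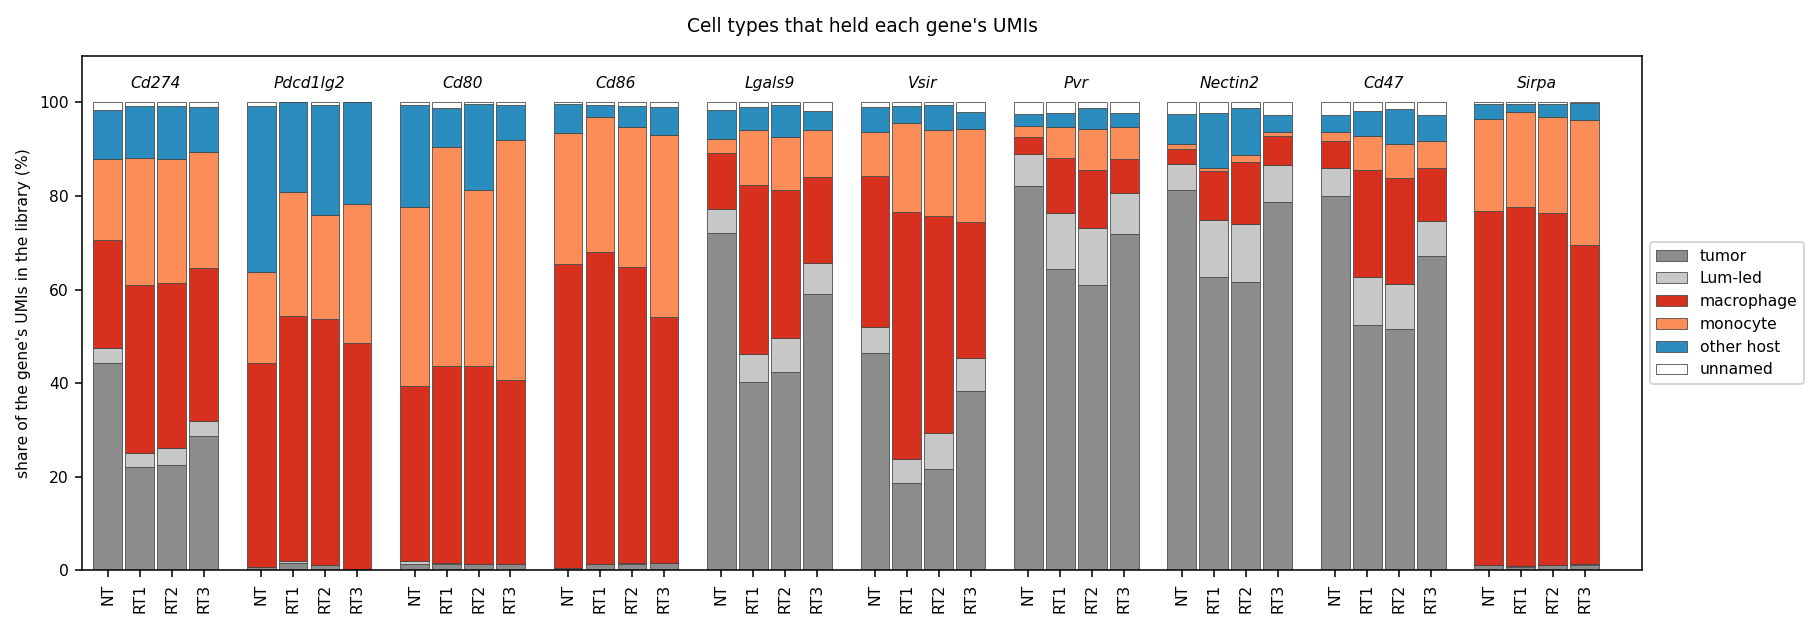
Share of each gene's UMIs (percent, y axis) by source for NT, RT1, RT2 and RT3, with 1 stacked bar per library. Pdcd1lg2, Cd80, Cd86 and Sirpa are almost wholly host in every library, whereas the tumor part of Cd47, with Lum-led cells, is 86.0% in NT and 61.2% in RT2.

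Levels per cell type were then compared with those of tumor cells. UMIs were summed per library and cell type, and edgeR's quasi-likelihood test with library as a block was run on 10032 genes. It gives a log2 fold change with a standard error (SE) and a Benjamini-Hochberg adjusted p, called below 0.05. In macrophages 8 of the 10 members were higher than in tumor cells and none was lower, where 37.7% of all genes tested were higher and 35.2% lower. The median log2 difference of the members was 3.59, against 0.01 over all genes. Monocytes had 9 members higher and 1 lower (40.3% and 37.6% of all genes), and fibroblasts had 10 higher (29.3% of all genes). Conventional dendritic cells had 9 higher (24.9% of all genes), and mature dendritic cells (14.9%), neutrophils (16.9%), endothelial cells (28.9%) and lymphocytes (32.7%) had 8 each. Lum-led cells had Cd47, Pvr and Vsir higher (19.4% of all genes) and the other members not called. At clustering resolution 0.4 and with no integration the class was not the same cells, since its largest cluster held 8539 and 7606 cells in place of 3448 and was led by Islr and Ramp2, and Cd274, Lgals9, Nectin2 and Sirpa were called higher in it. Cd47 was lost there without RT1, RT2 or RT3 (adjusted p = 0.0544, 0.0568 and 0.0686 by edgeR). In fibroblasts, of which NT held 18 cells with no UMIs of Vsir, Cd86 or Pdcd1lg2, Vsir was lost without RT2 or RT3 (adjusted p = 0.217 and 0.138) and Cd86 and Pdcd1lg2 without RT3 (0.596 and 0.212, all by edgeR). Pdcd1lg2 in endothelial cells was lost without NT, RT1 or RT2 (adjusted p = 0.0827, 0.233 and 0.131 by edgeR). Lgals9 was lost in lymphocytes without RT1 and in conventional dendritic cells without RT2 (adjusted p = 0.0589 and 0.0915 by edgeR), and Cd47 in neutrophils without RT1 or RT2. Over the 9 comparisons, 71 of 90 values were higher and 3 lower, the latter being Nectin2 in monocytes and Nectin2 and Pvr in lymphocytes. Of all genes, 14.9% to 40.3% were higher, depending on the cell type. From 739 (neutrophils) to 3769 (monocytes) of the 10032 genes were lower, with 2577 in lymphocytes.

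**Figure D2:**
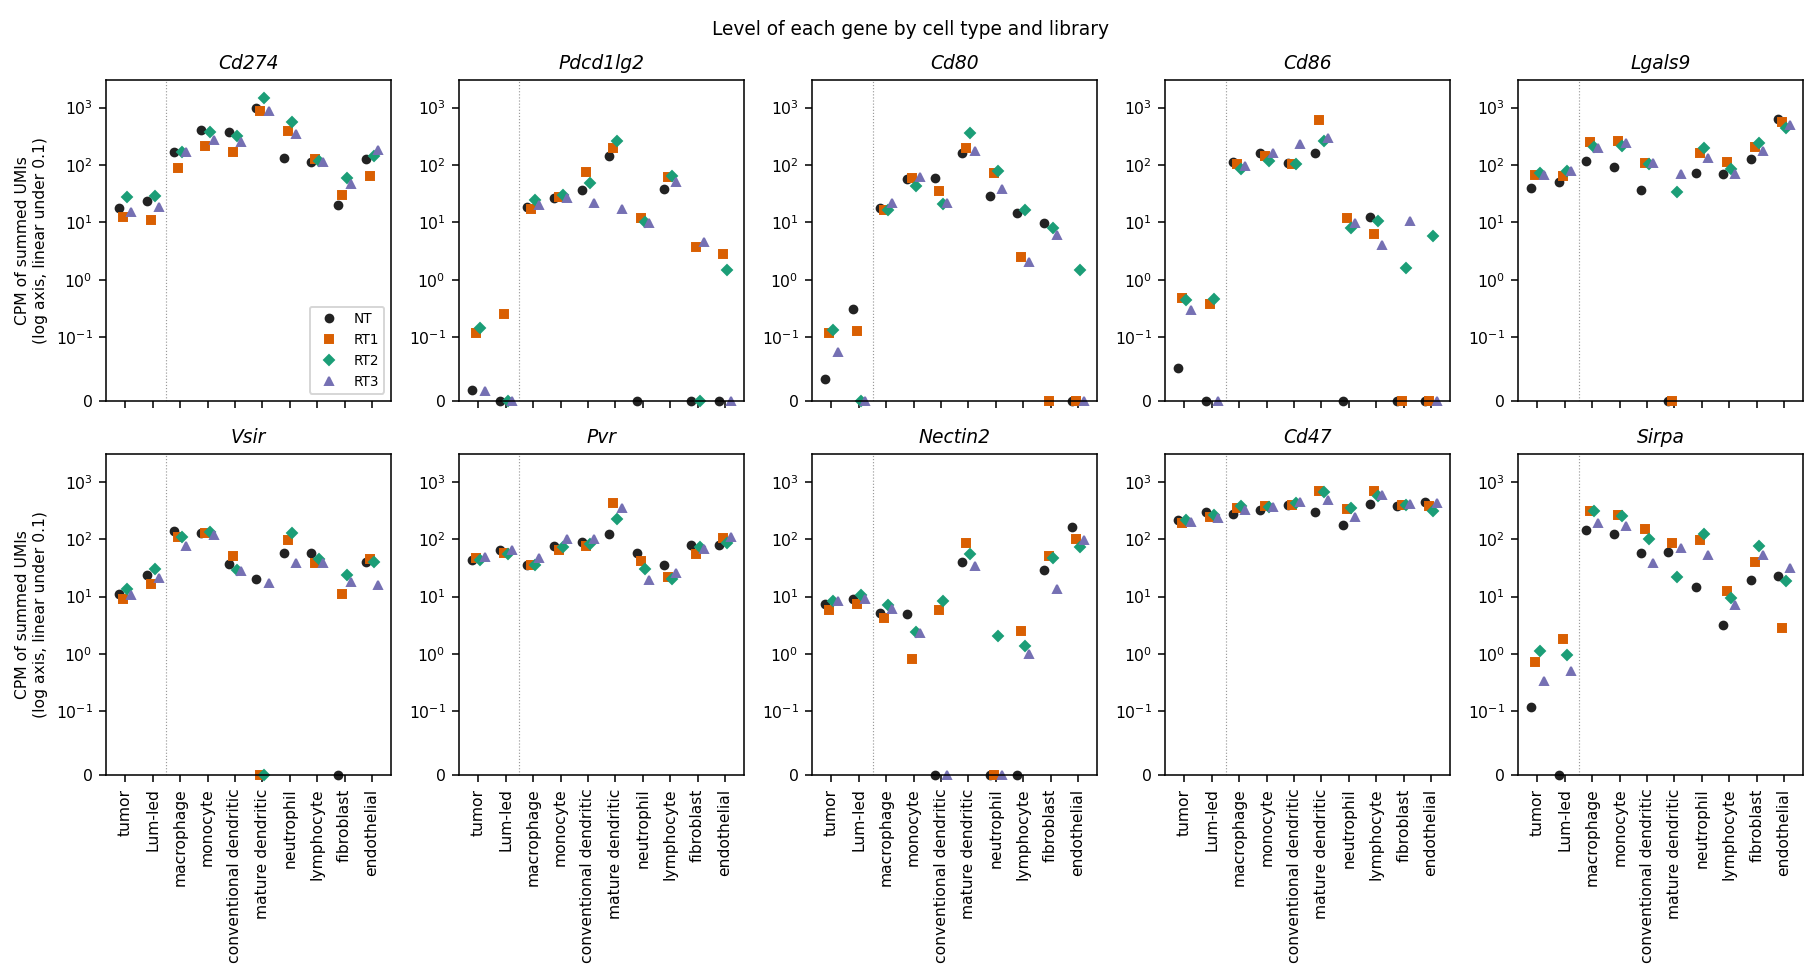
CPM of each member by cell type, 1 point per library, on a log axis that is linear under 0.1 CPM; a dotted line parts tumor and Lum-led cells from host cells. On average mature dendritic cells hold the highest Cd274 (864 to 1462 CPM by library) and tumor cells the lowest (12.5 to 27.2 CPM by library), whereas Cd47 spans only from 207 CPM in tumor cells to 565 CPM in lymphocytes on average.

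Among the PD-1 ligands, Cd274 was measured in every cell type. In tumor cells it lay at 17.8 CPM in NT (95% exact Poisson interval 16.7 to 18.9, counting error only) and at 12.5, 27.2 and 15.1 CPM in RT1 to RT3. In macrophages it lay at 167, 87.1, 166 and 166 CPM and in monocytes at 409, 213, 372 and 278 CPM. Every macrophage and monocyte value was above every tumor value, and RT1 was the lowest library in all 3 cell types. The difference from tumor cells was 3.46 ± 0.20 (log2, SE, n = 4 libraries) in macrophages and 4.69 ± 0.21 in monocytes, with adjusted p of 2.94e-19 and 4.91e-23 by edgeR. Mature dendritic cells, which carry antigen to lymph nodes, stood highest at 1050 ± 280 CPM (SD, n = 4). Neutrophils followed at 357 ± 178, monocytes at 318 ± 89.1 and conventional dendritic cells at 277 ± 88.3, which did not differ from each other beyond their spread over libraries. Within each library, however, conventional dendritic cells lay below monocytes (373, 167, 316 and 252 CPM in NT, RT1, RT2 and RT3), a difference that was not tested. Macrophages (146 ± 39.5), endothelial cells (129 ± 49.2) and lymphocytes (117 ± 6.37) formed the next such run. Fibroblasts at 39.2 CPM, Lum-led cells at 20.3 and tumor cells at 18.2 were the lowest, and Lum-led cells were not called apart from tumor cells (0.27 ± 0.20, adjusted p = 0.311 by edgeR). The larger Lum-bearing classes formed at clustering resolution 0.4 and with no integration were called higher (1.68 and 1.57, adjusted p = 3.19e-09 and 8.57e-10 by edgeR).

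Pdcd1lg2 was scarce and held by antigen-presenting cells and lymphocytes. Macrophages had 18.5, 17.0, 24.1 and 19.8 CPM in NT, RT1, RT2 and RT3, while all tumor cells together gave 1, 6, 10 and 1 UMIs. Mature dendritic cells averaged 156 CPM, though the RT3 value rested on 1 UMI. The lymphocyte level, 53.1 ± 11.3 CPM (SD, n = 4), was above that of monocytes, 28.0 ± 1.65, in every library. In macrophages the log2 difference from tumor cells was 8.22 ± 0.26 (SE, adjusted p = 3.81e-28 by edgeR).

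Cd80 and Cd86, the ligands of CD28 and CTLA-4, were held by macrophages, monocytes and dendritic cells. In macrophages Cd86 lay at 114, 104, 84.5 and 97.5 CPM and Cd80 at 17.6, 16.6, 16.2 and 21.7 CPM in NT, RT1, RT2 and RT3. Monocytes held more of both, with 146 ± 19.6 CPM of Cd86 and 55.7 ± 8.88 CPM of Cd80 (SD, n = 4). Mature dendritic cells stood highest with 330 ± 188 and 222 ± 89.7 CPM. Neutrophils held Cd80 (54.3 ± 24.2 CPM) but little Cd86 (7.38 ± 5.16 CPM, with 0 UMIs in NT, which allows up to 43.6 CPM). In macrophages the log2 difference from tumor cells was 8.67 ± 0.26 for Cd86 and 7.83 ± 0.29 for Cd80 (SE, adjusted p = 4.23e-29 and 6.62e-26 by edgeR).

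For the host genes the tumor level was set beside the level at which macrophage markers appeared in tumor cells. Taken as a percent of the macrophage level of the same library, tumor cells had 0.0446 to 0.519% of Cd86, 0.194 to 0.812% of Cd80, 0.0778 to 0.695% of Pdcd1lg2 and 0.0810 to 0.360% of Sirpa. The macrophage markers C1qa, C1qb, Mrc1, Cd68 and the others of the list had 0.0360 to 0.667% by the same measure. Cd68 alone set the upper end, and the other markers reached at most 0.387% (C1qa in RT1). Cd86, at 0.456, 0.519 and 0.300% in RT1 to RT3, lay above every marker but Cd68 in those libraries, and at 0.0446% in NT. Cd80 (6 UMIs in RT1 and 9 in RT2) and Pdcd1lg2 (6 UMIs in RT1) reached above 0.667% on few UMIs. The source of the UMIs of these 4 genes in tumor cells was not tested. Cd274 had 9.10 to 16.4%, Vsir 7.95 to 13.7% and Lgals9 26.1 to 34.3%, all above the range of the markers in every library.

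Lgals9 and Vsir were broader. Lgals9 was highest in endothelial cells, at 642, 572, 435 and 492 CPM in NT, RT1, RT2 and RT3. Monocytes (204 ± 76.9 CPM), macrophages (195 ± 56.9) and fibroblasts (187 ± 46.8) did not differ beyond their spread. Tumor cells had 60.8 ± 14.4 CPM (SD, n = 4) and mature dendritic cells gave 0 UMIs in NT and RT1, which allows up to 60.5 and 85.5 CPM. The log2 difference from tumor cells was 3.38 ± 0.18 in endothelial cells and 2.11 ± 0.16 in macrophages (SE, adjusted p = 2.59e-19 and 5.53e-15 by edgeR). Vsir lay at 138, 111, 110 and 77.0 CPM in macrophages and at 11.0, 9.18, 13.3 and 10.5 CPM in tumor cells. Monocytes (126 ± 6.68 CPM) and macrophages (109 ± 24.97) did not differ beyond their spread, and Vsir was 3.73 ± 0.15 higher in macrophages than in tumor cells on the log2 scale (adjusted p = 8.28e-25 by edgeR). Vsir lies within Cdh23 in the annotation, so that the 2 depend on how the counting assigned reads there.

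Pvr and Nectin2, the nectin-family ligands, were the members not called between macrophages and tumor cells. Pvr in tumor cells lay at 43.6, 46.1, 44.0 and 48.0 CPM in NT, RT1, RT2 and RT3, and in macrophages at 35.1, 35.7, 34.9 and 46.5 CPM. Tumor cells were the higher in every library on this scale, but edgeR, which rescales libraries by composition, gave 0.17 ± 0.11 (log2, SE) in favor of macrophages and did not call it (adjusted p = 0.137), and with plain UMI totals the value was -0.26 (adjusted p = 0.0280). Monocytes had 65.2 to 99.2 CPM of Pvr and were called higher (1.31 ± 0.11, adjusted p = 5.67e-14 by edgeR). Mature dendritic cells were highest at 279 ± 135 CPM (SD, n = 4), above endothelial cells at 94.7 ± 14.9, which did not differ beyond their spread from conventional dendritic cells at 86.1 ± 9.95. Lymphocytes had the least Pvr, 25.7 ± 7.00 CPM, and were called lower than tumor cells (-0.63 ± 0.15, adjusted p = 0.000581).

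Nectin2 was low in tumor cells, at 7.26, 5.93, 8.37 and 8.29 CPM. Endothelial cells, whose junctions use nectins, held 163, 100, 72.7 and 95.3 CPM, and fibroblasts 35.2 ± 17.1 CPM (SD, n = 4). The log2 differences from tumor cells were 3.96 ± 0.25 and 2.47 ± 0.31 (SE, adjusted p = 1.84e-17 and 1.35e-08 by edgeR). Macrophages had 5.65 ± 1.16 CPM, a difference that was not called (0.05 ± 0.19, adjusted p = 0.814) and whose sign changed with the normalization. Macrophages also held the tumor markers, with 134 to 213 CPM of Krt8 against 582 to 797 CPM in tumor cells, and the part of such RNA in the Pvr and Nectin2 values was not tested.

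CD47 and its receptor were both lower in tumor cells than in macrophages. Cd47 in tumor cells lay at 219, 192, 218 and 199 CPM, and in macrophages at 278, 356, 372 and 327 CPM. Lymphocytes held the most on average, with 403, 689, 572 and 596 CPM. Endothelial cells were above them in NT (445 CPM) and mature dendritic cells in RT2 (653 CPM). All named host types were called higher than tumor cells, from 0.75 ± 0.17 in neutrophils to 1.67 ± 0.15 in lymphocytes (log2, SE, adjusted p = 0.000668 and 8.82e-13 by edgeR). The neutrophil value was not called without RT1 (0.51, adjusted p = 0.102) or without RT2 (0.57, adjusted p = 0.0767). Among them lymphocytes (565 ± 119 CPM) and mature dendritic cells (531 ± 176) did not differ beyond their spread. Sirpa lay at 147, 314, 308 and 192 CPM in macrophages and at 122, 267, 251 and 167 CPM in monocytes, but tumor cells gave 7, 36, 76 and 22 UMIs in all. The log2 difference was 9.16 ± 0.23 in macrophages (adjusted p = 2.12e-31 by edgeR). Sirpa belongs to a family with close paralogs, so reads in shared stretches depend on how the counting treated them.

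The second comparison set NT beside RT1, RT2 and RT3. Over all cells of a library, 8 of the 10 members were above NT in every RT library and none was below it in every one, where 34.9% of all genes were above and 31.1% below. Only Sirpa was past the fold, that is, at a log2 ratio of at least 1 against NT in every RT library, which held for 6.18% of all genes. Without RT3 it was 5 members, Pdcd1lg2, Cd80, Cd86 and Lgals9 being added. The 6.18% of all genes is for all 3 RT libraries and does not serve as a measure for that count. Sirpa lay at 9.10 CPM in NT against 62.6, 66.4 and 22.3 CPM in the RT libraries, a mean log2 ratio of 2.31 ± 0.89 (SD, n = 3). Lgals9 lay at 46.4 CPM in NT and 108, 106 and 85.0 CPM in RT, and Cd86 at 8.24 in NT and 23.9, 21.6 and 14.7 CPM in RT. RT3 was the library closest to NT for all 3 genes. Cd274 lay at 34.1 CPM in NT against 37.2, 76.3 and 40.2 CPM in RT. All 3 RT libraries lay above NT beyond counting error, and RT2 lay farthest from it. Cd47 lay at 232 CPM in NT and at 239, 267 and 226 CPM in RT, on both sides of NT.

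Macrophages and monocytes together held 6.14% of the UMIs of NT and 20.04%, 21.6% and 11.5% of those of RT1 to RT3. The difference between RT and NT in each gene was therefore split into the part that follows from the cell types' shares of the UMIs and the part from levels within cell types. For Cd86 the shares gave 13.5 ± 5.79 CPM (SD, n = 3) and the levels -1.72 ± 1.92. For Cd274 the shares gave 22.9 ± 11.3 CPM and the levels -5.70 ± 13.4, with RT2 positive and RT1 and RT3 negative. Cd80 (3.41 CPM from shares), Vsir (13.8) and Pdcd1lg2 (2.58) were also mainly on the side of the shares. Lgals9 was the other way round, with 15.3 ± 7.94 CPM from shares and 38.1 ± 4.99 from levels, and the levels gave the larger part in every RT library. Sirpa had 24.7 ± 13.9 CPM from shares and 16.7 ± 10.6 from levels.

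**Figure D3:**
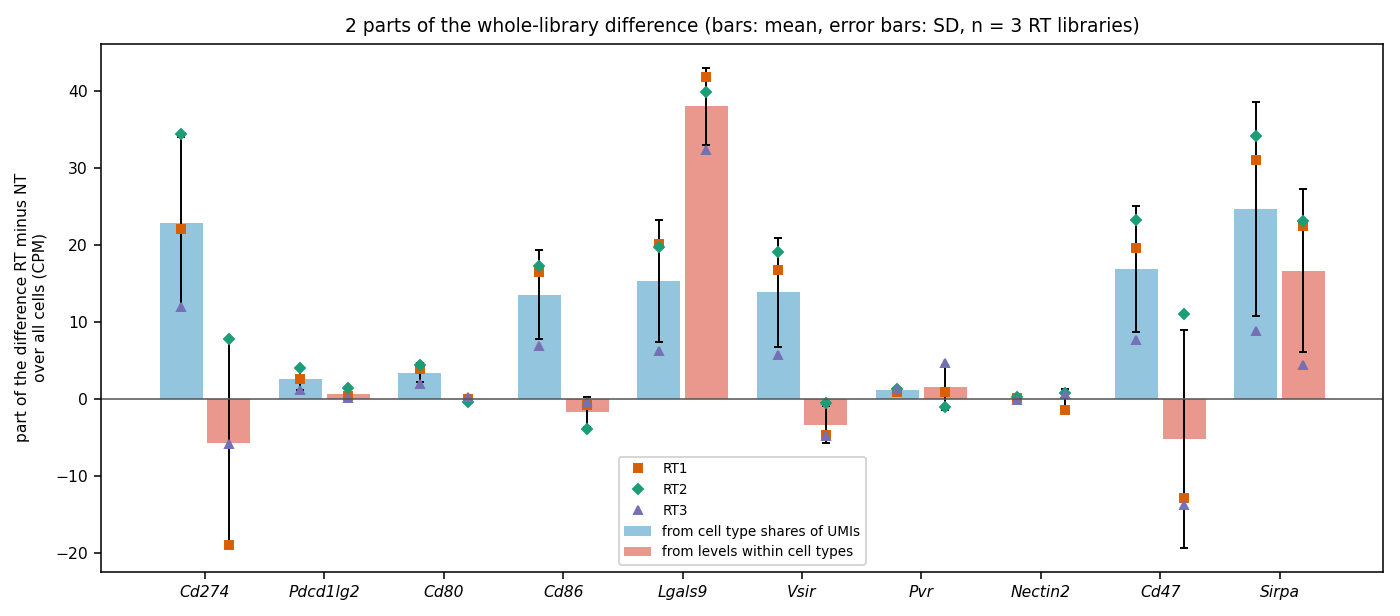
RT minus NT over whole libraries in CPM for each member, split into the part from cell type shares and the part from levels within cell types, with a point for each RT library, bars at the mean and error bars of 1 SD (n = 3). Lgals9 has its larger part from levels (38.1 CPM), whereas for Cd274, Cd86 and Vsir the mean part from levels lies below 0.

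Within cell types, 75 values of a member had enough UMIs to be compared, at least 10 in NT or on average in RT. Of these, 8 were past the fold toward RT and none toward NT. The corresponding share of all genes past the fold toward RT was 4.07% in tumor cells, 4.36% in macrophages, 5.94% in monocytes, 6.35% in conventional dendritic cells, 8.75% in neutrophils, 2.65% in lymphocytes, 9.74% in fibroblasts, 3.2% in Lum-led cells, 4.88% in mature dendritic cells and 6.3% in endothelial cells. Toward NT it was 0.276% in tumor cells, 0.356% in Lum-led cells, 1.28% in macrophages, 1.02% in monocytes, 1.33% in conventional and 4.42% in mature dendritic cells, 4.42% in neutrophils, 1.24% in lymphocytes, 4.18% in fibroblasts and 1.98% in endothelial cells. Lgals9 and Sirpa made up 6 of the 8. Without RT3 the number was 13, with Sirpa in macrophages and monocytes among those added. The shares of all genes above are for all 3 RT libraries and do not serve as a measure for that count. Without RT1, Nectin2 in monocytes, and without RT2, Cd80 in lymphocytes, was past the fold toward NT.

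Lgals9 was higher in RT in most cell types. Tumor cells had 39.5 CPM in NT and 66.8, 71.3 and 65.7 in RT1 to RT3, a mean log2 ratio of 0.78 ± 0.06 (SD, n = 3). Monocytes had 92.5 CPM in NT and 267, 219 and 237 in RT, a ratio of 1.38 ± 0.15 that was past the fold, as was that of conventional dendritic cells, 36.5 CPM (5 UMIs) in NT and 109, 102 and 110 in RT. The RT libraries lay closer to each other than to NT in these cells. Macrophages had 119 CPM in NT and 256, 208 and 198 in RT (0.89 ± 0.20). Endothelial cells were on the other side, with 642 CPM in NT and 572, 435 and 492 in RT, where 26.6% of all genes lay below NT in every RT library and 30.6% above. Being above NT in every RT library held for 32.4% of all genes in tumor cells, 35.9% in macrophages and 41.7% in monocytes.

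Sirpa was higher in RT in the phagocytes that carry it. The mean log2 ratio was 0.85 ± 0.40 in macrophages and 0.87 ± 0.37 in monocytes (SD, n = 3), with RT3 the closest to NT in both. It was past the fold in tumor cells, neutrophils, lymphocytes and fibroblasts, all of which had 7 or fewer Sirpa UMIs in NT. The 95% exact binomial counting intervals of the log2 ratio reached below 0 in neutrophils (-0.92 in RT3), lymphocytes (-0.19 in RT2 and -0.97 in RT3) and fibroblasts (-1.16 in RT1 and -0.53 in RT3). In tumor cells Sirpa lay at 0.119 CPM in NT and at 0.709, 1.11 and 0.338 CPM in RT1 to RT3. The summed macrophage markers moved with it in tumor cells, and in lymphocytes they were 116 CPM in NT and 686, 513 and 213 CPM in RT. Their part in the Sirpa values was not tested. The same holds for Cd86 in tumor cells, the other value past the fold there, with 3 UMIs in NT and 24, 30 and 19 in RT1 to RT3.

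Cd274 had no common direction. In tumor cells RT1 and RT3 lay below NT and RT2 above it, and the mean log2 ratio was -0.04 ± 0.58 (SD, n = 3). Monocytes had less in every RT library (-0.55 ± 0.40), as did 24.2% of all genes there. Conventional dendritic cells also had less in every RT library (-0.65 ± 0.47). In macrophages RT1 lay below NT (87.1 against 167 CPM), while RT2 and RT3 equalled NT within counting error. Neutrophils were past the fold, with 131 CPM in NT and 394, 563 and 341 CPM in RT, but NT rested on 9 UMIs in 23 cells. The summed macrophage markers in neutrophils were 87.2 CPM in NT and 815, 1487 and 404 CPM in RT, and their part was not tested. Vsir was lower in RT macrophages (-0.49 ± 0.30), where being below NT in every RT library held for 27.8% of all genes. Cd47 was higher in RT lymphocytes (0.62 ± 0.14) and macrophages (0.34 ± 0.10) and lower in tumor cells (-0.11 ± 0.10), all under the fold. Values above NT in every RT library were 22.8% of all genes in lymphocytes and 35.9% in macrophages, and values below it 30% in tumor cells and 37.8% in lymphocytes. With no integration, lymphocytes formed a cluster led by Trbc2 and Cd8a, with 303, 148, 372 and 190 cells in NT, RT1, RT2 and RT3. Another, led by Gzma and Gzmc, held 87, 216, 237 and 160 cells. The part of this changing mix in the lymphocyte values was not tested.

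**Figure D4:**
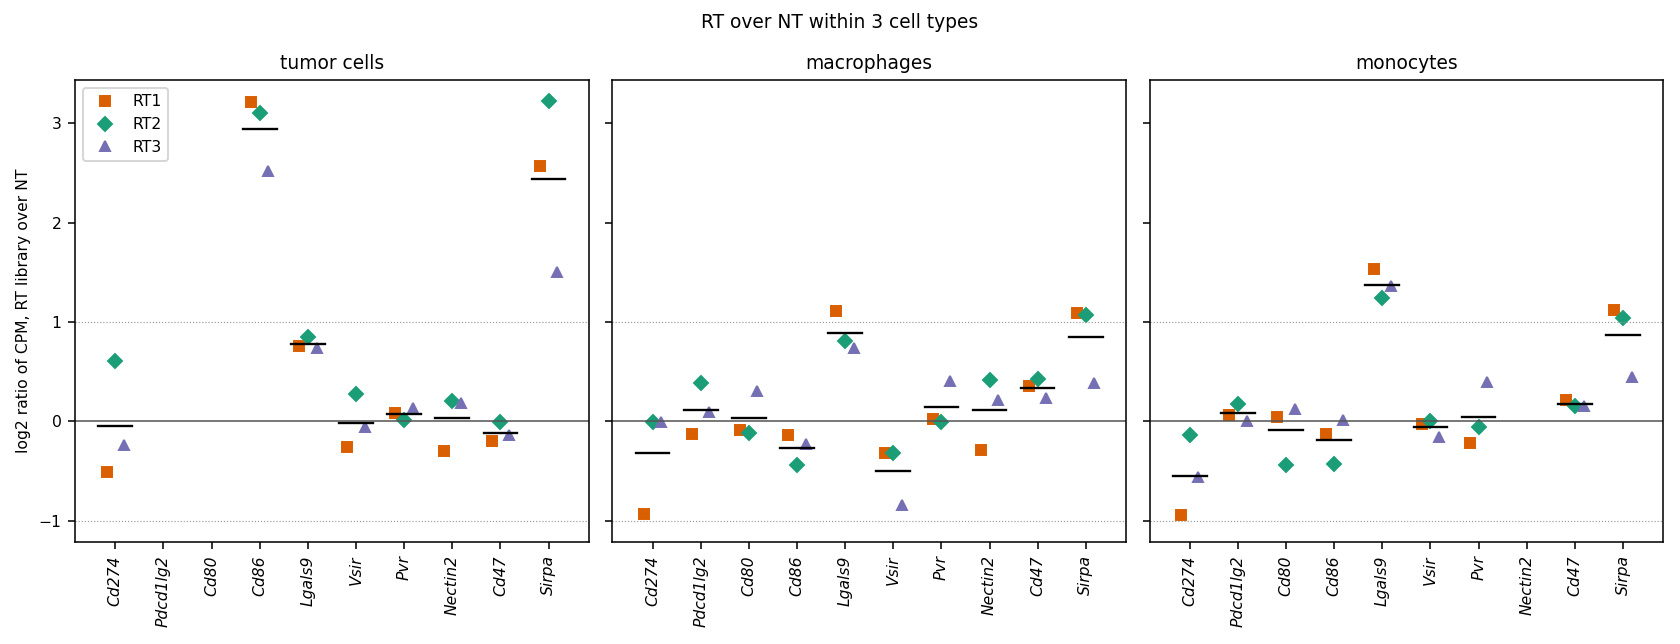
Log2 ratio of RT over NT for each member with enough UMIs in tumor cells, macrophages and monocytes, 1 point per RT library, a bar at their mean and dotted lines at the fold used. Lgals9 lies above 0 in all 3 RT libraries in tumor cells (mean 0.78) and monocytes (mean 1.38), while Cd274 lies on both sides of 0 in tumor cells.

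The third comparison asked whether the members vary with interferon-induced genes among tumor cells and among macrophages taken with monocytes. Interferons induce antiviral genes such as Ifit1, Isg15 and the guanylate-binding proteins. Cells with at least 2000 UMIs were thinned to 2000 and binned by their UMIs of 20 such genes, none of them a member: 0, 1 to 2, 3 to 5, and 6 or more. Of the macrophages and monocytes, 698, 2581, 3577 and 1514 were binned in NT, RT1, RT2 and RT3. Another 649, 2385, 1494 and 2199 were too shallow and left out. Of the tumor cells 6455, 6405, 5815 and 7579 were binned, and 328, 529, 505 and 707 were left out. The myeloid values thus describe the deeper cells only. The bins are ranges of a score and not cell types. In tumor cells, the highest bin against the lowest had 6 members higher of the 7 that could be tested, where 29.1% of all 12074 genes were higher and 26.7% lower. Pdcd1lg2, Cd80 and Cd86 had too few UMIs in tumor cells to pass the filter on low counts and be tested. With no such filter Cd86 was called higher (1.82 ± 0.67, adjusted p = 0.0192 by edgeR), and Pdcd1lg2 and Cd80 were not called. The Cd86 value rested on 0, 3, 8 and 7 UMIs in the highest bin of NT, RT1, RT2 and RT3.

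Cd274 rose the most of the members. It lay at 7.69, 6.13, 7.76 and 6.11 CPM in the tumor cells of NT, RT1, RT2 and RT3 without interferon UMIs, and at 83.2, 57.4, 79.6 and 67.0 CPM in those with 6 or more. The libraries of the 2 bins did not overlap, and NT was the highest library in the last bin. The log2 difference was 3.44 ± 0.07 (SE, n = 4, adjusted p = 6.25e-26 by edgeR). The middle bins gave 6.31 to 10.5 CPM and 10.8 to 13.95 CPM, so most of the rise was in the last bin. That bin held 12.6%, 12.3%, 28.3% and 15.2% of the binned tumor cells of NT, RT1, RT2 and RT3, but 50.3%, 47.2%, 70.2% and 58.4% of their Cd274 UMIs. RT2, the library with the most Cd274 in tumor cells, was thus also that with the largest share of cells in the bin.

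Lgals9 was higher along the interferon bins and, within each bin, in the RT libraries. Tumor cells without interferon UMIs had 32.4 CPM in NT against 47.9, 47.3 and 48.0 CPM in RT. Those with 6 or more had 66.8 CPM in NT against 145, 113 and 130 CPM in RT. The RT libraries lay above NT in each of the 4 bins, and the difference between the highest and the lowest bin was 1.42 ± 0.06 (log2, SE, adjusted p = 3.48e-18 by edgeR). Vsir (1.17 ± 0.10), Nectin2 (0.58 ± 0.11), Cd47 (0.57 ± 0.03) and Pvr (0.19 ± 0.06) were also called higher, Pvr not without RT3 (0.11, adjusted p = 0.160 by edgeR). On the CPM scale Pvr was lower in the highest bin than in the lowest in RT2 and higher in the other libraries. Sirpa was not (adjusted p = 0.369). Macrophage markers in tumor cells moved with the bins, summing to 7.81 CPM in the lowest and 9.32 CPM in the highest for NT, to 31.3 and 48.4 CPM for RT1, to 39.9 and 53.4 CPM for RT2 and to 20.4 and 26.5 CPM for RT3, and their part in these values was not tested. The median UMIs per cell fell from 8558 to 6284.5 from the lowest to the highest bin of NT.

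In macrophages and monocytes together, 5 of the 10 members were higher in the highest bin and 1 was lower, where 10.6% of 9814 genes were higher and 7.4% lower. Cd274 lay at 134, 65.8, 89.1 and 72.1 CPM in the lowest bin and at 251, 177, 322 and 279 CPM in the highest, a log2 difference of 1.75 ± 0.11 (SE, adjusted p = 1.85e-12 by edgeR). Pdcd1lg2 was higher by 1.65 ± 0.21, Lgals9 by 1.11 ± 0.09, Cd86 by 0.74 ± 0.11 and Cd47 by 0.61 ± 0.07. The lowest bin of NT held 42 cells, with 1 UMI of Pdcd1lg2 and 10 UMIs of Lgals9. Cd80 was lower by 0.42 on the log2 scale (-0.42 ± 0.15, adjusted p = 0.0456). Without NT, RT1, RT2 or RT3 in turn, Cd80 was not called (adjusted p = 0.0996, 0.0594, 0.272 and 0.104 by edgeR). Macrophages made up 61.9, 69.8, 61.8 and 68.8% of the cells of the lowest bin in NT, RT1, RT2 and RT3 and 81.95, 78.5, 59.3 and 76.2% of those of the highest. In macrophages alone, 6 members were called higher and none lower (10.7% and 6.84% of all genes), Vsir being added (0.40, adjusted p = 0.0242) and Cd80 lost (-0.31, adjusted p = 0.263 by edgeR). In monocytes alone 3 of 9 were higher and none lower (7.12% and 2.89% of all genes), namely Cd274, Lgals9 and Cd47, while Pdcd1lg2, Cd86 and Cd80 were not called (adjusted p = 0.3999, 0.0757 and 0.384 by edgeR). Cd274 was 2.01 ± 0.11 higher in macrophages alone and 1.47 ± 0.15 in monocytes alone. With no replicate block, Lgals9 and Cd80 were not called (adjusted p = 0.0867 and 0.293 by edgeR). The tumor markers summed to 2180 CPM in the lowest bin and 761 CPM in the highest for NT, to 3920 and 2423 CPM for RT1, to 3229 and 2580 CPM for RT2 and to 3847 and 2840.5 CPM for RT3, and their part in these values was not tested.

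**Figure D5:**
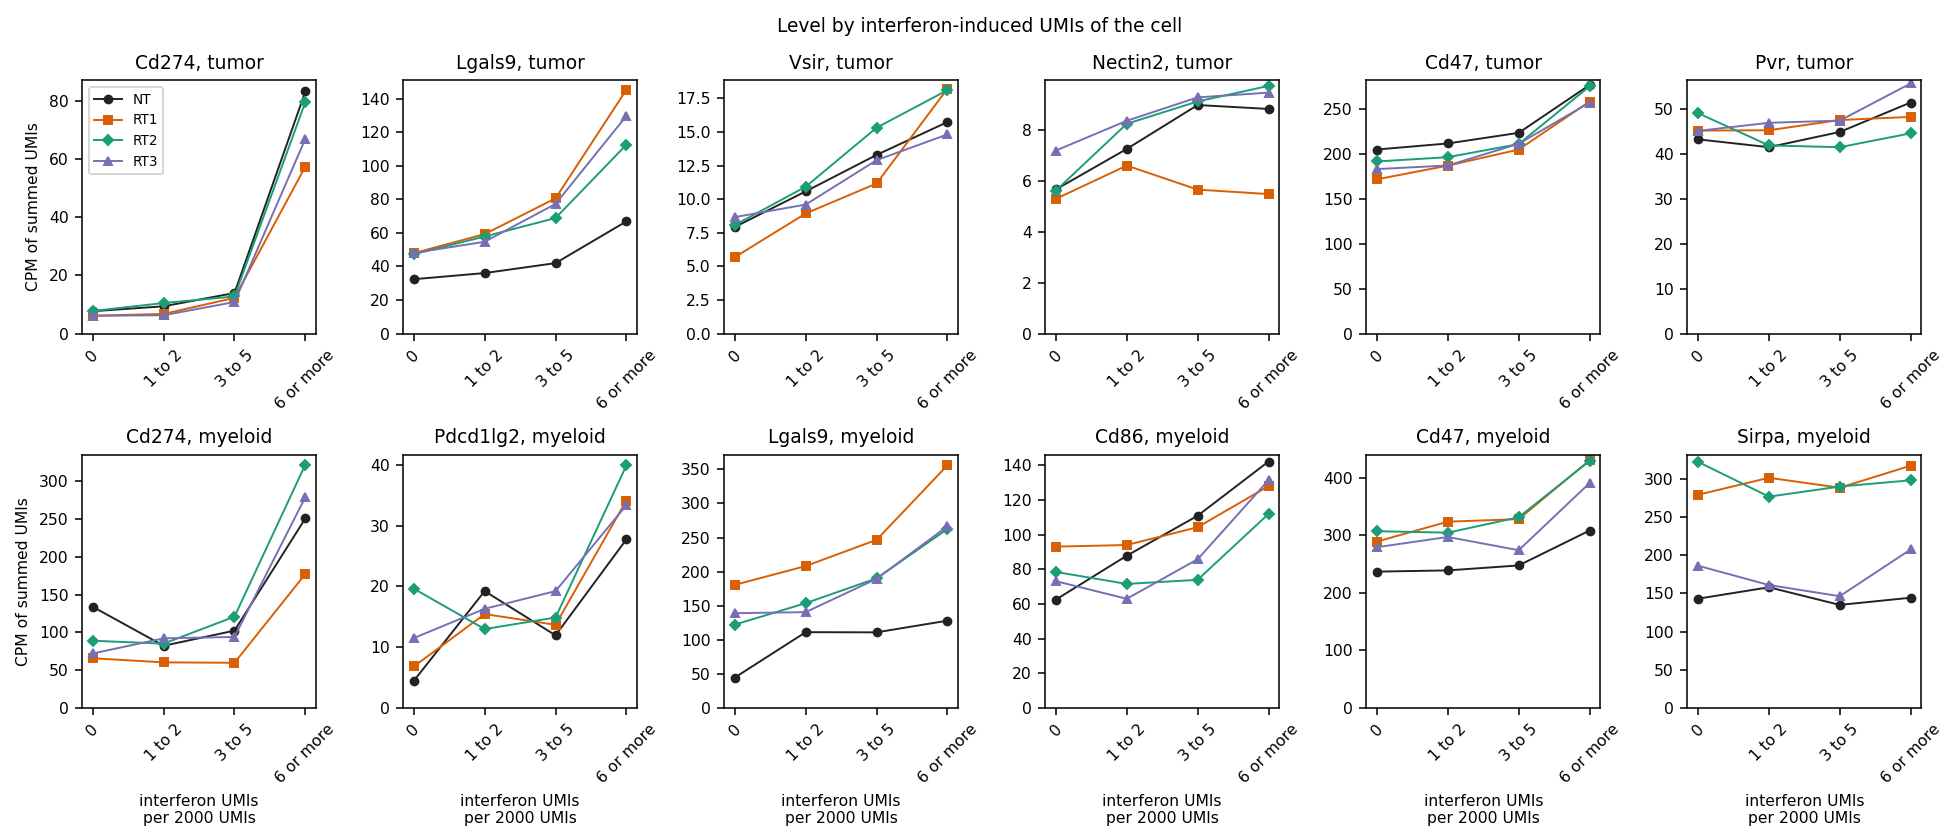
CPM of members (linear axes) in the 4 interferon bins, for tumor cells (upper row) and for macrophages with monocytes (lower row), with 1 line per library. Cd274 in tumor cells climbs from 6.11 to 7.76 CPM in the lowest bin to 57.4 to 83.2 CPM in the highest, while the RT lines of Lgals9 stay above the NT line in every tumor bin.

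A wider list of 37 genes of these pathways, 10 receptors, 17 other ligands and 10 regulators, was read in the same way. In macrophages 22 of the 31 tested were higher than in tumor cells (37.7% of all genes) and 4 were lower (35.2% of all genes), namely Cd276, Nectin3, Lgals1 and Cmtm4. Pirb, an inhibitory receptor for MHC class I, was 8.23 ± 0.19 higher, Havcr2 (TIM-3, a receptor of galectin-9) 5.67 ± 0.21 and Cmtm6, which keeps PD-L1 at the surface, 1.86 ± 0.12 (log2, SE, adjusted p = 2.73e-32, 1.95e-23 and 3.48e-17 by edgeR). The nectin Nectin3 was lower in macrophages by 1.40 on the log2 scale (-1.40 ± 0.13, adjusted p = 2.28e-12). The most abundant genes of the list in tumor cells and in macrophages were H2-D1 and B2m, both of MHC class I. H2-D1 lay at 4421, 4316, 5169 and 4475 CPM in tumor cells and at 5261, 7044, 6820 and 7009 CPM in macrophages of NT, RT1, RT2 and RT3.

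Between NT and RT, 2 of 26 genes of the wider list with enough UMIs were past the fold toward RT in tumor cells. The counts were 2 of 27 in macrophages, 1 of 26 in monocytes, 1 of 18 in conventional dendritic cells and 4 of 18 in neutrophils. Fibroblasts had 2 of 19, endothelial cells 2 of 17, and the other named types and Lum-led cells none. Toward NT it was 1 gene each in macrophages, monocytes and Lum-led cells. The shares of all genes are those given above for each cell type. In macrophages Icosl, the ligand of ICOS, lay at 41.6 CPM in NT and at 17.7, 17.2 and 17.2 CPM in RT1 to RT3, past the fold toward NT as 1.28% of all genes were. Qpctl, the enzyme that modifies CD47 so that SIRPα can bind it, lay at 6.16 CPM in NT and at 12.9, 13.9 and 12.9 CPM in RT macrophages, and Nectin1 was past the fold toward RT on 1 UMI in NT (0.308 CPM against 0.841, 0.738 and 1.19 CPM in RT). In monocytes Cd226 lay at 22.9 CPM in NT and at 6.25, 3.72 and 2.30 CPM in RT, while Siglecg, past the fold toward RT, lay at 0.995 CPM in NT and at 4.89, 3.38 and 4.93 CPM in RT. The NT value of Siglecg rested on 1 UMI. In tumor cells only Havcr2 and Pirb were past the fold, both below 1 CPM in every library. In the smaller cell types the genes past the fold included Icosl (lower, Lum-led cells), Thbs1 (conventional dendritic cells), Pirb, Cd24a and Jak2 (neutrophils), Lgals3 and Ifngr1 (fibroblasts) and Ceacam1 and Lgals3 (endothelial cells).

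Along the interferon bins of tumor cells, 13 of the 22 tested genes of the wider list were higher in the highest bin (29.1% of all genes) and 2, Ptpn11 and Cd276, were lower (26.7% of all genes). Irf1 was higher by 1.75 ± 0.05, Thbs1, a ligand of CD47, by 1.25 ± 0.08 and H2-K1 by 0.86 ± 0.03 (log2, SE, adjusted p = 7.13e-23, 1.62e-13 and 9.05e-19 by edgeR). In macrophages and monocytes 11 of 25 were higher (10.6% of all genes) and 1, Thbs1, was lower (7.4% of all genes). Its value was -0.76 ± 0.09 (adjusted p = 6.27e-07 by edgeR), opposite in sign to tumor cells, though the difference itself was not tested. Thbs1 is among the monocyte markers used for naming. It lay above tumor cells by 8.17 in monocytes and 5.50 in macrophages (log2). Macrophages made up 61.9, 69.8, 61.8 and 68.8% of the lowest bin in NT, RT1, RT2 and RT3. In the highest bin they made up 81.95, 78.5, 59.3 and 76.2%. The part of this mix in the Thbs1 value was not tested.

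The genes whose levels ran most like each member were looked for over 40 sums, 1 per library and cell type, by the Pearson correlation of log2(CPM + 1) among 6296 genes. The sums share libraries and depth, so the values are a description. Cd274 ran closest to Prex1 (r = 0.90), Btg1 and Ncf1, and Cd86 to Cd83 (0.96), Bcl2a1a and Ly86. Pdcd1lg2 ran closest to Bcl2a1d (0.94), Pik3r5 and Myo1g, Cd80 to Samhd1 (0.91), Bcl2a1b and Ncf1, and Sirpa to Gda (0.90), Rab32 and Syk. Lgals9 ran closest to Arhgef7 (0.90), Lipa and Mindy2, and Cd47 to Irf8 (0.80), Irf4 and AW112010. Vsir ran closest to Map11 (0.82), Card19 and Cyth4, Pvr to Ccdc88a (0.80), Spred1 and Clic4, and Nectin2 to Rras (0.83), Itgb1 and Sh3bp4. Within the list, Cd274 and Cd80 were alike (0.86), as were Pdcd1lg2 and Cd86 (0.85), whereas Lgals9 had a negative value with each of Cd274, Cd80, Cd86 and Pdcd1lg2.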

How the data were processed

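The study measured single-cell RNA in 4 libraries of subcutaneous LLC tumors, 1 of NT (3 tumors pooled) and 3 of RT, each RT library from a tumor of its own. Libraries were made by the authors with the microwell kit SeekOne MM (3′ end), and reads were processed with SeekOne Tools. The submitters' processing notes also name STAR 2.5.1b, featureCounts of Subread 1.6.4 and Cell Ranger, without their roles, and build GRCm39. The deposited values were whole-number UMI counts per gene and barcode with no normalization, 1 table per library. The table of RT2 appeared to have been filtered before deposit.

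Genes were joined by symbol. Barcodes under 200 genes or over 20% mitochondrial UMIs were left out. Cells were normalized to 10000, and 2000 variable genes without the members, the wider list and the interferon list gave 30 components, integrated over libraries by a rewritten Harmony and clustered at resolution 0.8 (scanpy 1.11.5, leidenalg 0.10.2). Clusters were named from marker lists. The naming rule, the handling of Lum-led cells, the grouping of sources by 50% and 90%, the promoter window and the letter pattern marked by capitals were settled after clusters or values were seen. Doublets were not removed, since the caller marked none in NT, and removing the 8% highest scores was an alternative.

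UMIs were summed per library and cell type (at least 10 cells). CPM is scaled to 1000000 UMIs of that sum, and intervals (95%, exact Poisson or Clopper-Pearson) and limits for 0 UMIs (3 counts) cover counting error only. Cell types and bins were tested by edgeR 4.0.16 (R 4.3.3) with library as a block, TMM normalization, filterByExpr and Benjamini-Hochberg adjustment over all genes, and the SE was the absolute log2 difference over the square root of F. DESeq2 1.42.0, plain totals, no filter, no block, leaving out each library, another resolution, no integration, a 10% mitochondrial limit (for NT against RT and the sources) and, for the myeloid bins, macrophages or monocytes alone were alternatives. For NT against RT no test was run. The tests and their error describe these 4 libraries. Named were all members, the 2 most abundant genes of the wider list in tumor cells and in macrophages, its genes past the fold except 1 that is not reported here, and the 3 genes most alike to each member. Other genes of the wider list were named after their values were seen. The members, the wider list and the interferon genes were chosen with earlier results of these data known. Promoters came from a set of RefSeq promoters (GRCm38.p6). The copy used had entries for 7 of the 10 members and none for Cd86, Pvr and Sirpa.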

Additional observations from a re-analysis of the deposited data

Results flagged for a closer look

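Among tumor cells, macrophages, monocytes and lymphocytes, the only cell types examined for this, 3 of the 10 members had RT libraries that lay on opposite sides of NT in different cell types, all RT libraries above NT in 1 type and all below it in another, as had 25% of the 11719 genes with enough UMIs in at least 2 of these types. The count of members lies near that share, so the 3 genes are described singly and not as a trait of the list. The differences between cell types were not tested, since NT was 1 library. Cd47 had a mean log2 ratio of RT over NT of 0.34 in macrophages, 0.18 in monocytes and 0.62 in lymphocytes, but -0.11 in tumor cells. Pvr had 0.077 in tumor cells and -0.67 in lymphocytes. In tumor cells the RT2 values of both genes lay within counting error of NT, at 218 against 219 CPM for Cd47 and 44.0 against 43.6 CPM for Pvr. Cd86 had 2.94 in tumor cells, -0.27 in macrophages and -0.96 in lymphocytes. The mix of lymphocyte clusters differed between libraries, and its part in the lymphocyte values was not tested. The Cd86 value of tumor cells rested on 3 UMIs in NT, and the log2 ratios had 95% exact binomial counting intervals of 1.49 to 5.59 for RT1, 1.42 to 5.46 for RT2 and 0.75 to 4.92 for RT3. In the same tumor cells the macrophage markers summed to 8.83 CPM for NT, 39.9 CPM for RT1, 50.5 CPM for RT2 and 24.5 CPM for RT3, and their part in that value was not tested.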

How the results depend on the processing

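Over the comparisons of cell types and interferon bins, no called value changed sign under the alternatives run for them (the 10% mitochondrial limit was run for NT against RT and the sources), but some calls were lost and some gained. Of the 74 calls between cell types, leaving out each library lost 1 to 5, the doublet alternative 6, plain totals 2 and each other alternative at most 1, mostly in fibroblasts (Vsir, Cd86, Pdcd1lg2, Cd274), Pdcd1lg2 in endothelial cells and Cd47 in Lum-led cells. Calls whose value could not be compared under an alternative are not counted as lost. Thus 64 of the 74 were kept at resolution 0.4, 69 with only the 2 cell types compared and 70 with Lum-led cells joined. Calls gained numbered 4 in the Lum-led class (Cd274, Lgals9, Nectin2, Sirpa) at resolution 0.4 and with no integration, where the class held other and more cells, 3 with only the 2 cell types compared, and at most 2 otherwise. Members lower than tumor cells numbered 3, and 5 with plain UMI totals. Members lower in the highest myeloid bin numbered 1, but 0 with DESeq2, with no filter, with no replicate block and without each library in turn (0 to 0), and 0 in macrophages alone or monocytes alone, alternatives added after the data were seen. Members higher there numbered 5, and 3 in monocytes alone, where Sirpa and Vsir, not called, were -0.17 and -0.23. Member values past the fold toward RT ranged from 8 to 13 within cell types and from 1 to 5 over whole libraries when RT libraries were left out, and toward NT from 0 to 1 within cell types. The shares of all genes past the fold given in the results are for all 3 RT libraries. The share of all genes past the fold in monocytes was 3.88% with no minimum of UMIs, in place of 5.94%. Nectin2 in macrophages against tumor cells (0.05) lay between -0.085 and 0.028 without each library in turn, at -0.088 with DESeq2, at -0.38 with plain totals and at -0.16 with Lum-led cells joined to tumor cells, an alternative added after the data were seen. Pvr there (0.17) was -0.26 with plain totals, -0.027 without the 8% highest doublet scores and -0.046 with Lum-led cells joined. Without those doublet scores Sirpa and Vsir in the myeloid bins were -0.086 and -0.012. The library block is part of the tests. With no replicate block, Cd47 in Lum-led cells was lost among 74 calls, and in the bins Pvr in tumor cells and Lgals9 and Cd80 in myeloid cells (adjusted p = 0.119, 0.0867 and 0.293 by edgeR). At resolution 0.4 there was no conventional dendritic class. No paired analysis of NT and RT was possible, since NT was 1 pool of 3 tumors and each RT library came from a tumor of its own. The causes were not tested. Small cell types limit depth, as NT held 17 to 59 cells of 5 of them.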
